A study of Mus musculus with 6 samples.

Results

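The transcripts described here are those of 4 cadherins (Cdh1, Cdh2, Cdh3 and Cdh11), 3 catenins (Ctnna1, Ctnnb1 and Ctnnd1) and Epcam, chosen by gene symbol as 8 of the 21240 genes in a count table from NMuMG cells. NMuMG is an epithelial line from normal mouse mammary gland, grown with serum and insulin and moved to medium without serum or insulin for 6 h before treatment. Cells then received vehicle (HCl and BSA) for 2 h, 5 ng/ml TGFβ1 for 2 h, or 5 ng/ml TGFβ1 for 12 h, with 2 biological replicates each and 6 stranded total RNA libraries in all. The labels name no genetic change in any group, and the comparison asks how these transcripts moved early and late after TGFβ addition. Vehicle cells were taken at 2 h only, so at 12 h the effect of TGFβ cannot be told apart from that of a longer time without serum and insulin.

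Classical cadherins are transmembrane proteins that hold neighboring epithelial cells together through their extracellular domains at adherens junctions. Their cytoplasmic tails bind β-catenin (Ctnnb1) and p120-catenin (Ctnnd1), and β-catenin in turn binds α-catenin (Ctnna1), which links the complex to actin. β-catenin is also the transcriptional effector of Wnt signaling. Exchange of E-cadherin (Cdh1) for N-cadherin (Cdh2) is a classic marker of the epithelial-mesenchymal transition (EMT) that TGFβ induces in NMuMG cells. Epcam is an epithelial adhesion protein outside the cadherin family.

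Promoter sequence was at hand for 3 of the 8 genes, from RefSeq on GRCm38.p6, a different build from that of the counts, so these coordinates cannot be set beside those on the counts' build. Cdh1, Cdh2, Cdh3, Cdh11 and Ctnna1 had no entry used here. The 250 bases upstream of the outermost start site are shown for Ctnnb1 and Ctnnd1, the catenins that moved in opposite directions, and for Epcam, whose window holds the E-box that Snail and Zeb repressors bind. Each runs 5′ to 3′ on the strand of its gene, in lower case, with E-box matches in capitals.
Ctnnb1, chr9:120933150-120933399, plus strand: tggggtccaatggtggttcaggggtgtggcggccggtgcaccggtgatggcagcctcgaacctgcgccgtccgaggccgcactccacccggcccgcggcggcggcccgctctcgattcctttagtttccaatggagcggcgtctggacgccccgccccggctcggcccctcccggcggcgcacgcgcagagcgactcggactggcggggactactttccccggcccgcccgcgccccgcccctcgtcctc
Ctnnd1, chr2:84658978-84659227, minus strand: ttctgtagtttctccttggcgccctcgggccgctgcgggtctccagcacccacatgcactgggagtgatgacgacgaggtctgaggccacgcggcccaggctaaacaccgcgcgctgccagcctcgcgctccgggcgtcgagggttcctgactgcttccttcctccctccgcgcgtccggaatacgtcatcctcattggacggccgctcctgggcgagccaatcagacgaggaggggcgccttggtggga
Epcam, chr17:87635729-87635978, plus strand: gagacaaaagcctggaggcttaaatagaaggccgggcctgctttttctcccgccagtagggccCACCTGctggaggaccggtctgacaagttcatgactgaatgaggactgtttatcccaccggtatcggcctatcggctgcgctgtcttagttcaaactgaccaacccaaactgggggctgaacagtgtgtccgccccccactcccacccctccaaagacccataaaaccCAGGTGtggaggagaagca
The Epcam window held the E-box (CAGGTG, or CACCTG when read on the other strand) at positions -187 to -182 and -19 to -14, counted back from the start site. Of 32851 RefSeq promoter windows of the same length, 17.2% held at least 1 E-box match. No window of Ctnnb1 or Ctnnd1, second start sites included, held the E-box or any of 4 other motifs searched on both strands, namely AP-1 (TGANTCA, in 6.75% of all promoters), a SMAD element (CAGACA, 17.1%), TCF/LEF (CTTTGAT, 3.21%) and CRE (TGACGTCA, 1.55%). In base composition the Ctnnb1 window was 74.8% G or C, the Ctnnd1 window 66.8% and the Epcam window 56.4%, beside a median of 52.4% over all promoters. These letters describe the windows and say nothing of binding.

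Libraries held 14705886 to 23786993 counts, and replicates of a group correlated across genes at 0.978 to 0.993. Genes that reached 2 CPM (counts scaled to a common library size) in 2 or more libraries were tested, 11080 in all, and 5 of the 8 genes passed: Cdh1, Cdh2, Ctnna1, Ctnnb1 and Ctnnd1. Cdh3, Cdh11 and Epcam fell below that filter. CPM is scaled by TMM factors of 0.961 to 1.07. All 5 TGFβ response genes used as a check rose at both times, and Skil, which encodes the SMAD corepressor SnoN, rose by 2.09 (SE 0.244, adjusted p = 0.00288) in log2 fold change (log2FC) at 2 h and by 2.21 (SE 0.245, adjusted p = 0.000659) at 12 h. Of 14 epithelial markers 8 were tested, and Krt8, Krt18 and Krt19 were abundant (420 to 6249 CPM), whereas Cldn3, Cldn7, Esrp1, Ovol1 and Lcn2 had at most 7 counts in any library. Grhl2 had 17 and 27 counts with vehicle, 2 and 12 at 2 h, and 0 and 4 at 12 h (adjusted p = 0.0195 at 12 h in an edgeR fit without a filter on low counts). Summed CPM of the epithelial list was 4769 to 5546 with vehicle, 6060 to 6208 at 2 h and 10131 to 10240 at 12 h, with 4 of the 8 tested higher and 2 lower at 12 h, namely Krt18 (log2FC 1.53), Krt8 (1.63), Krt7 (1.60) and Cldn4 (9.39), then Krt19 (-1.95) and Elf3 (-1.27). Of all genes, 21.8% were higher and 21.5% lower at 12 h. Cldn4 had 2 and 1 counts with vehicle, below a floor of 3 counts, so the size of its log2FC is poorly known. It passed the filter through the TGFβ libraries alone. The fibroblast list, almost wholly Vim, summed to 1827 to 1990, 2360 to 3033 and 2958 to 3238 CPM, with 3 of its 9 genes tested. Of these, Col1a1 passed the filter through the TGFβ libraries alone. Col1a1 on that list rose by 3.51 at 12 h (SE 0.350, adjusted p = 0.000436), from 0.648 CPM in the lowest library to 11.0 in the highest, and the Vim call at 12 h (0.69, adjusted p = 0.00981) ended without vehicle replicate 1 (0.0574) or TGFβ 12 h replicate 2 (0.0765). Basal or myoepithelial markers summed to 2.996 to 12.2 CPM (1 of 6 tested), endothelial markers to 0.177 to 1.95 CPM (0 of 5) and immune markers to 4.36 to 6.88 CPM (1 of 5, Cd68). Col1a2, Col3a1 and Dcn had at most 28 counts in any library, and Pdgfrb, of the same list, had 0 and 0 counts with vehicle, 2 and 3 at 2 h, and 22 and 26 at 12 h (adjusted p = 0.00149 at 12 h in the fit without a filter). In such bulk libraries fewer cells of a type and less RNA per cell cannot be told apart, and the part of these markers in the results below was not tested.

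On NCBIM37, the mm9 build of the counts, Cdh11 (chr8:105156895-105309011, minus strand), Cdh3 (chr8:109034791-109080808) and Cdh1 (chr8:109127251-109194146) lie on chromosome 8, the last pair in tandem. Cdh2 (chr18:16747386-16967755, minus strand) and Ctnna1 (chr18:35278542-35414427) lie on chromosome 18. Ctnnb1 lies at chr9:120838334-120869625, Ctnnd1 at chr2:84440228-84490922 (minus strand) and Epcam at chr17:88035319-88050446. All 8 are annotated as protein-coding, and their values are reads summed over exons.

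To compare levels between genes, counts were divided by exonic length (RPKM, the CPM per kilobase). Ctnnb1 was the most abundant of the 8 in every library, with 1314 and 1085 RPKM in the vehicle libraries, 1740 and 1433 after 2 h of TGFβ, and 686 and 629 after 12 h. By group mean it ranked 12 with vehicle, 10 at 2 h and 31 at 12 h among 18958 genes with a length. Ctnna1 followed with a mean of 214 ± 9.09 RPKM (SD, n = 2) in vehicle, 250 ± 4.78 at 2 h and 283 ± 9.73 at 12 h. Cdh1 came next in vehicle at 85.7 ± 8.97, above Ctnnd1 at 65.0 ± 5.38, and their libraries did not overlap. At 2 h the libraries of Cdh1 (133 and 98.8) and Ctnnd1 (107 and 109) overlapped, and at 12 h Ctnnd1 (152 and 134) lay above Cdh1 (89.0 and 73.8). Cdh2 was the lowest of the tested genes, with means of 15.1, 17.1 and 25.6 RPKM. Group means of Cdh11, Epcam and Cdh3 were at most 0.259 RPKM.

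**Figure D1:**
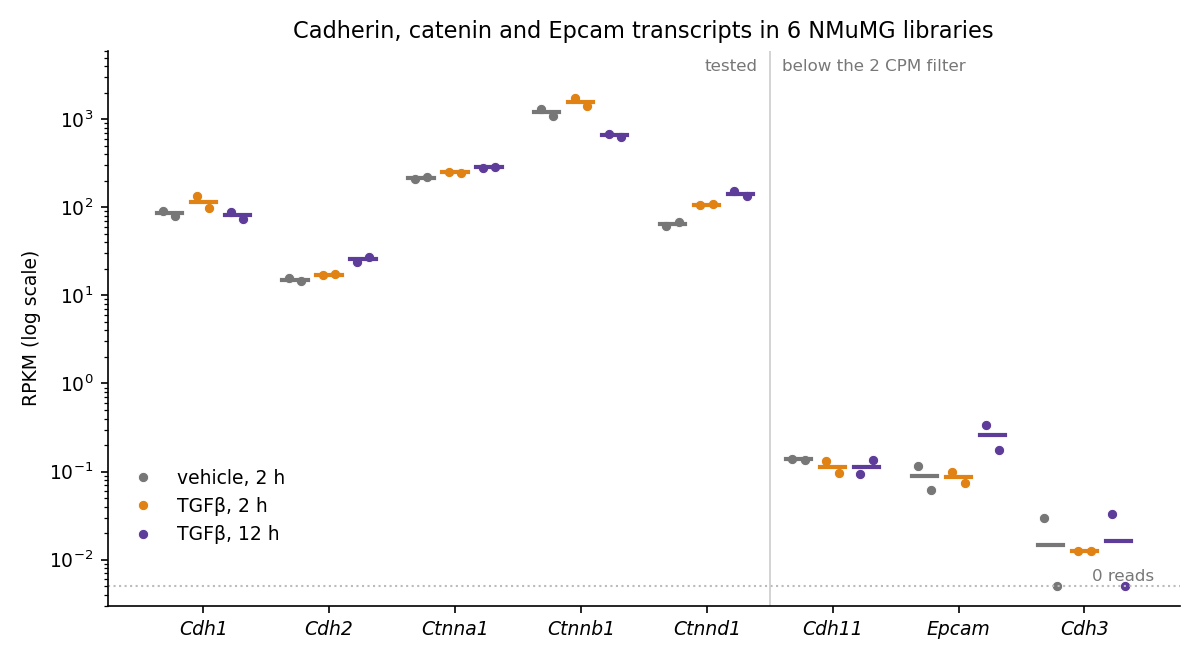
RPKM (log axis) of the 8 transcripts in the 6 libraries, with points for libraries and bars for group means, gray for vehicle, orange for TGFβ at 2 h and purple for TGFβ at 12 h. Ctnnb1 lies highest in every group, and Cdh11, Epcam and Cdh3 lie below 1 RPKM (libraries with 0 reads sit on the dotted line).

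Of the cadherins, Cdh2 rose at 12 h and Cdh1 passed the test against vehicle at neither time, so N-cadherin RNA went up without a detected fall of E-cadherin RNA below vehicle. Cdh1, which encodes E-cadherin, the main epithelial cadherin, had 421 and 363 CPM in the vehicle libraries, 609 and 452 at 2 h, and 407 and 338 at 12 h. Both 2 h libraries were above both vehicle libraries, and the 12 h libraries overlapped with vehicle. Cdh1 differed from vehicle by 0.44 in log2FC at 2 h (SE 0.177, edgeR quasi-likelihood test, adjusted p = 0.159) and by -0.07 at 12 h (SE 0.177, adjusted p = 0.762). The 95% interval of the 12 h fold ran from 0.708 to 1.27, before any adjustment for the number of genes, so a fall to below 0.708 of the vehicle level lay outside it. The 12 h value changed sign to 0.04 without vehicle replicate 1 or without TGFβ 12 h replicate 2, and the 2 h value became a call without TGFβ 2 h replicate 2 (0.63, adjusted p = 0.0432) and with the replicate number as a block (0.42, adjusted p = 0.0111). Between 2 h and 12 h Cdh1 differed by -0.51 (SE 0.177, adjusted p = 0.0661), which became a call under 4 of 14 alternatives, namely the replicate number as a block (-0.50, adjusted p = 0.0025), DESeq2 (adjusted p = 0.0264), total counts as the scale (adjusted p = 0.0480) and the fit without TGFβ 2 h replicate 2 (-0.71, adjusted p = 0.0134).

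Cdh2 encodes N-cadherin, a cadherin of neural and mesenchymal cells. It had 126 and 118 CPM in the vehicle libraries, 136 and 140 at 2 h, and 194 and 219 at 12 h. Both 12 h libraries lay above all of the others, and the 2 h libraries lay above vehicle by little. The 2 h log2FC was 0.18 (SE 0.105, adjusted p = 0.301), and at 12 h Cdh2 rose by 0.76 (SE 0.105, adjusted p = 0.00166), a 1.69-fold change (95% interval 1.42 to 2.02). That call was made under all 14 alternatives tried. From 2 h to 12 h Cdh2 rose by 0.58 (SE 0.105, adjusted p = 0.00708), a call that ended without TGFβ 12 h replicate 2 (0.48, adjusted p = 0.0632). Of all genes tested, 9.91% were called higher at 2 h and 5.25% were called lower, while 12 h gave 21.8% and 21.5%, and the step between 2 h and 12 h gave 15.2% and 18.9%. The comparisons with vehicle share the vehicle libraries.

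Within each library the Cdh2 to Cdh1 ratio, in reads per kilobase, was 0.169 and 0.184 with vehicle, 0.127 and 0.176 at 2 h, and 0.271 and 0.367 at 12 h. Both 12 h libraries lay above the other 4. The mean log2 ratio was higher by 0.84 at 12 h than with vehicle, a 1.79-fold change (exact permutation test, two-sided, p = 0.333), and 0.333 is the smallest p that 2 against 2 libraries allow. Cdh1 remained the larger of these by RNA, at 84.9 ± 0.768% (SD, n = 2) of the reads per kilobase of Cdh1, Cdh2, Cdh3 and Cdh11 in vehicle, 86.8 ± 2.64% at 2 h and 75.8 ± 3.94% at 12 h. Dividing by the longest transcript in place of all exons lowered the share at 12 h to 66.1%.

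Cdh3 (P-cadherin, a cadherin of basal and placental epithelium) and Cdh11 (a mesenchymal cadherin) were nearly silent. Cdh3 had 2 and 0 counts with vehicle, 1 and 1 at 2 h, and 3 and 0 at 12 h, at or below the floor of 3 counts in every library, while Cdh1, its neighbor downstream on chromosome 8, had 5697 to 12026 counts. Cdh11 had 10 and 9 counts with vehicle, 11 and 8 at 2 h, and 9 and 11 at 12 h, with a pooled 0.582 CPM in vehicle (exact Poisson 95% interval 0.350 to 0.908) and 0.472 CPM at 12 h (0.288 to 0.728), intervals that cover counting error only. In a fit of all 16115 genes with any count, Cdh11 differed by -0.29 at 12 h (SE 0.529, adjusted p = 0.728). At this depth no difference was detectable for either gene.

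The 3 catenins moved apart over the time course. Ctnnd1 was the only tested gene of the 8 called at 2 h and rose further by 12 h, Ctnna1 rose modestly at 12 h, and Ctnnb1 fell at 12 h after a 2 h value that did not pass the test. Ctnnd1 encodes p120-catenin, which binds the juxtamembrane part of the cadherin tail and limits cadherin endocytosis. It had 448 and 503 CPM in the vehicle libraries, 779.8 and 796 at 2 h, and 1109 and 978 at 12 h. The 3 groups did not overlap, and each step went up. Ctnnd1 rose by 0.73 at 2 h (SE 0.116, adjusted p = 0.00891) and by 1.13 at 12 h (SE 0.117, adjusted p = 0.000493), a 2.19-fold change (95% interval 1.81 to 2.66). The 2 h call ended without vehicle replicate 1 (0.65, adjusted p = 0.0720), and the 12 h call was made under all 14 alternatives. With an absolute log2FC above 1 required as well, Ctnnd1 was the 1 member called at 12 h against vehicle, beside 19.6% of all genes tested, none was at 2 h, beside 6.25% of all genes, and Ctnnb1 was the 1 member between 2 h and 12 h, beside 14.4%. The later step of Ctnnd1, 0.41 from 2 h to 12 h (SE 0.116, adjusted p = 0.0359), was called under only 7 of 14 alternatives and under none of the 6 that left out 1 library (adjusted p = 0.0518 to 0.213).

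Ctnnb1 had 6703 and 5531 CPM in the vehicle libraries, 8872 and 7305 at 2 h, and 3498 and 3207 at 12 h. The 12 h libraries were below all of the others, and both 2 h libraries were above both vehicle libraries. At 2 h the log2FC was 0.40 (SE 0.152, adjusted p = 0.134), with a 95% interval of 0.04 to 0.77, and it became a call with the replicate number as a block (adjusted p = 0.0238). At 12 h Ctnnb1 fell by 0.87 on the log2 scale (SE 0.153, adjusted p = 0.00449), to 0.548 of the vehicle level (95% interval 0.425 to 0.707), and without TGFβ 12 h replicate 2 that call ended (-0.82, adjusted p = 0.0519). Between 2 h and 12 h it fell by 1.27 (SE 0.154, adjusted p = 0.00169), to 0.414 of the 2 h level, a call made under all 14 alternatives. Its counts of 62420 to 175269 per library make 12.2 to 34.4 reads per exonic base. The reads were single-end and stranded, and the removal of duplicates that the study's methods describe keeps about 1 such read per start position, so these counts hold more reads than that removal would leave. The counts of Ctnna1 (3.45 to 6.35 per exonic base), Ctnnd1 (1.04 to 3.48) and Cdh1 (1.25 to 2.63) were above 1 in every library as well, and those of Cdh2 (0.230 to 0.553) were not. Reads carry no molecular identifiers, and copies of 1 molecule cannot be told apart from separate molecules.

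Ctnna1 encodes αE-catenin, the link from β-catenin to actin. It had 766 and 814 CPM with vehicle, 936 and 911 at 2 h, and 1023 and 1074 at 12 h, and again the 3 groups did not overlap. The log2FC was 0.23 at 2 h (SE 0.0989, adjusted p = 0.188). At 12 h Ctnna1 rose by 0.41 (SE 0.0990, adjusted p = 0.0159), a 1.33-fold change (95% interval 1.13 to 1.56). That call ended with total counts as the scale (0.28, adjusted p = 0.0650), and without either vehicle library (adjusted p = 0.1001 for replicate 1 and 0.0566 for replicate 2) or either 12 h library (0.0747 and 0.117).

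**Figure D2:**
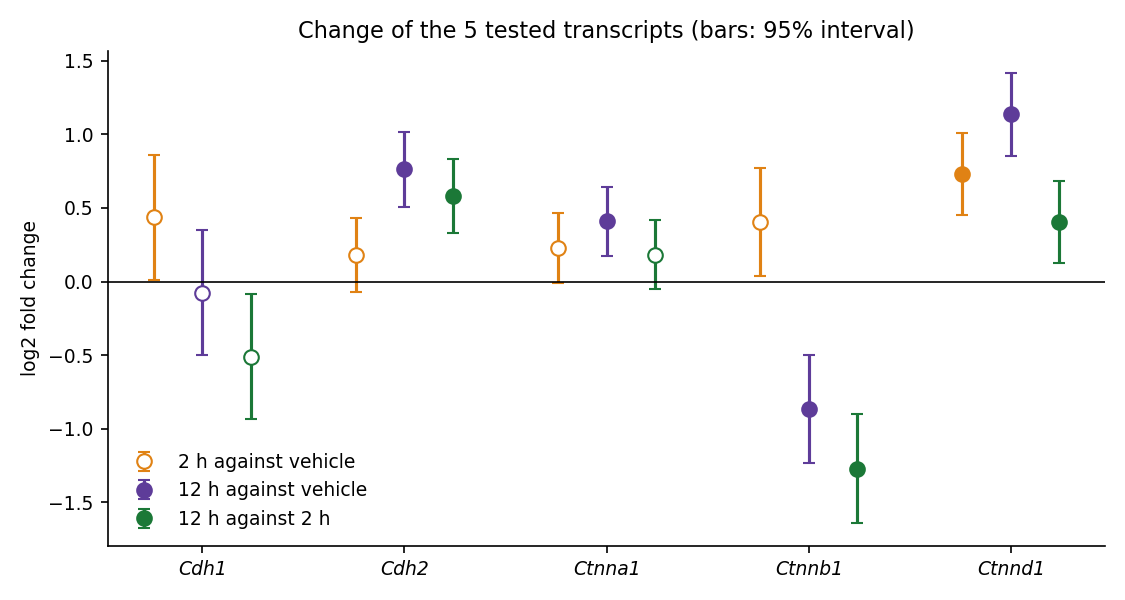
Log2 fold change with its 95% interval for the 5 tested genes, at 2 h against vehicle (orange), 12 h against vehicle (purple) and 12 h against 2 h (green). Filled points passed an adjusted p of 0.05. Ctnnb1 lies at -0.87 and Ctnnd1 at 1.13 for 12 h against vehicle.

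Ratios within a library show the same divergence without any scaling between libraries. Apart from Cdh2 over Cdh1, these ratios were picked after the values had been seen. Ctnnb1 over the sum of Cdh1 and Cdh2, in reads per kilobase, was 12.2 and 11.5 with vehicle, 11.6 and 12.3 at 2 h, and 6.07 and 6.23 at 12 h. Its 2 h mean differed from vehicle by 0.01 in log2, with both Ctnnb1 and Cdh1 at higher values there, and at 12 h it was lower than in any other library, at 0.518 of the vehicle ratio. Ctnna1 over the same cadherin sum was 1.93 and 2.34 with vehicle, 1.69 and 2.12 at 2 h, and 2.45 and 2.88 at 12 h. Ctnnd1 over that sum was 0.568 and 0.731 with vehicle, 0.711 and 0.935 at 2 h, and 1.34 and 1.32 at 12 h, a 2.07-fold change at 12 h. The widest change was in Ctnnd1 over Ctnnb1, which was 0.0465 and 0.0634 with vehicle, 0.0612 and 0.0759 at 2 h, and 0.221 and 0.212 at 12 h, 3.99-fold higher than vehicle. The exact permutation test gave p = 0.333 for each of these ratios at 12 h against vehicle, again the smallest possible, so the groups are described by their lack of overlap.

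**Figure D3:**
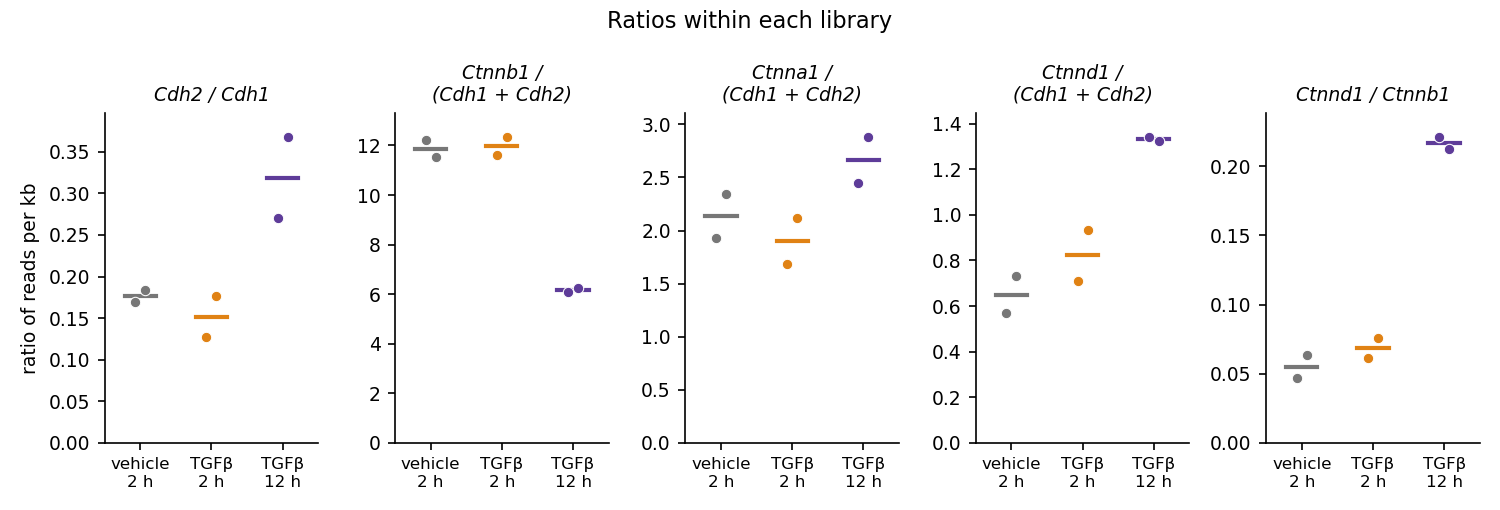
Ratios of reads per kilobase within each library, with points for libraries and bars for group means in vehicle (gray), TGFβ at 2 h (orange) and TGFβ at 12 h (purple), each axis starting at 0. Ctnnb1 over the cadherin sum lies near 12 in the vehicle and 2 h libraries and at 6.07 and 6.23 at 12 h, while the Ctnnd1 ratios lie highest at 12 h.

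Epcam was close to silent, which is low for a transcript usually abundant in simple epithelia. It had 4 and 2 counts with vehicle, 4 and 3 at 2 h, and 16 and 7 at 12 h. Both 12 h libraries were above the other 4. Pooled over libraries, the 23 counts at 12 h against 6 with vehicle made a 2.95-fold ratio of CPM (exact binomial 95% interval 1.17 to 8.87, counting error only). With no filter on low counts edgeR gave a log2FC of 1.52 at 12 h (SE 0.727, adjusted p = 0.155), so no change was detectable at this depth. Among 8 relatives and partners of Epcam, 3 were tested. Claudin-7 (Cldn7), a binding partner, had 0 counts in 5 libraries and 7 in TGFβ 2 h replicate 2. The tetraspanin Tspan8 fell by 0.70 at 12 h (SE 0.226, adjusted p = 0.0440), and its call ended without vehicle replicate 1 or either 12 h library (adjusted p = 0.143 to 0.214).

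The genes whose levels followed each member most closely were ranked by Pearson's r of log2 CPM over the 6 libraries, which fall into 3 treatment groups, as a description. For Cdh1 they were Ttc39b (r = 0.994), Tmem65 (0.989) and Agfg1 (0.984), and only 17 genes had r above 0.95. For Ctnnb1 they were Lnx2 (0.997), Nfkbia (0.997) and St3gal3 (0.997), among 165 genes above 0.95. For Cdh2 they were Dnaaf5 (0.998), Fam189a2 (0.997) and Snap47 (0.997), among 547. For Ctnna1 they were Copb2 (0.997), Gfod1 (0.997) and Inppl1 (0.996), among 435, and for Ctnnd1 Psmd12 (0.999), Usp42 (0.998) and Dbr1 (0.997), among 414. Among the members, the highest r was between Ctnna1 and Ctnnd1 (0.964) and the lowest between Cdh2 and Ctnnb1 (-0.823), and Cdh1 was closer to Ctnnb1 (0.780) than to Cdh2 (-0.379).

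Beside the members, 11 lists of junction and β-catenin genes held 85 tested genes. At 2 h 16 were called higher and 1 lower, with a median log2FC of 0.24 against -0.01 over all genes, and at 12 h 32 were higher and 11 lower, with a median of 0.27 against 0.02 over all genes. These counts are read against the 9.91% and 21.8% of all genes called higher at these times, and the 5.25% and 21.5% called lower.

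Among 18 other cadherins, 5 were tested, and Cdh6 was the 1 called at 2 h. Cdh6 encodes K-cadherin, a type II cadherin of kidney and neural crest. It had 161 and 173 CPM in the vehicle libraries, 884 and 947 at 2 h, and 616 and 618 at 12 h. The groups did not overlap, with a peak at 2 h. Cdh6 rose by 2.46 at 2 h (SE 0.106, adjusted p = 0.000121) and by 1.89 at 12 h (SE 0.104, adjusted p = 5.72e-05). Over 2632 annotated exonic bases its means were 63.4, 348 and 234 RPKM, beside 85.7, 116 and 81.4 for Cdh1, but the gene models used for counting were not used here and a longer model would lower these. From 2 h to 12 h it fell by 0.57 (adjusted p = 0.00641), a call that ended without TGFβ 12 h replicate 1 (adjusted p = 0.0553) or 2 (0.0550). Cdh24 rose by 1.16 at 12 h (SE 0.265, adjusted p = 0.0128), and kidney-associated Cdh16 fell by 0.81 (SE 0.235, adjusted p = 0.0310). Both calls ended without vehicle replicate 1 (adjusted p = 0.0750 and 0.160) and without either 12 h library (0.0659 to 0.167). Cdh5 (VE-cadherin, of endothelium) was below the filter, with 1 and 2 counts with vehicle, 6 and 5 at 2 h, and 39 and 36 at 12 h, and was singled out after its values had been seen. Its pooled ratio at 12 h was 19.3 (exact binomial 95% interval 6.34 to 95.5, counting error only), and the fit without a filter gave an adjusted p of 0.000531, while Pecam1, Kdr, Tie1 and Tek, which mark endothelial cells, had at most 2 counts in any library.

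Among 7 other catenins, 4 were tested, and Jup was the 1 called at 2 h. Jup encodes plakoglobin, the closest relative of β-catenin, which binds the same cadherin tails and also serves desmosomes. It had 379 and 399 CPM in the vehicle libraries, 1085 and 1140.2 at 2 h, and 1120 and 1168 at 12 h. Jup rose by 1.52 at 2 h (SE 0.101, adjusted p = 0.000464) and by 1.56 at 12 h (SE 0.101, adjusted p = 9.87e-05). In RPKM, Jup averaged 60.4 ± 2.19 with vehicle, 173 ± 6.07 at 2 h and 178 ± 5.29 at 12 h (SD, n = 2), below Ctnnb1 in every group. Arvcf, a relative of p120-catenin, rose by 0.75 at 12 h (SE 0.137, adjusted p = 0.00509), and Pkp4, another, fell by 0.33 (SE 0.0924, adjusted p = 0.0279), a call that ended without any 1 of the vehicle or 12 h libraries (adjusted p = 0.113 to 0.125).

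**Figure D4:**
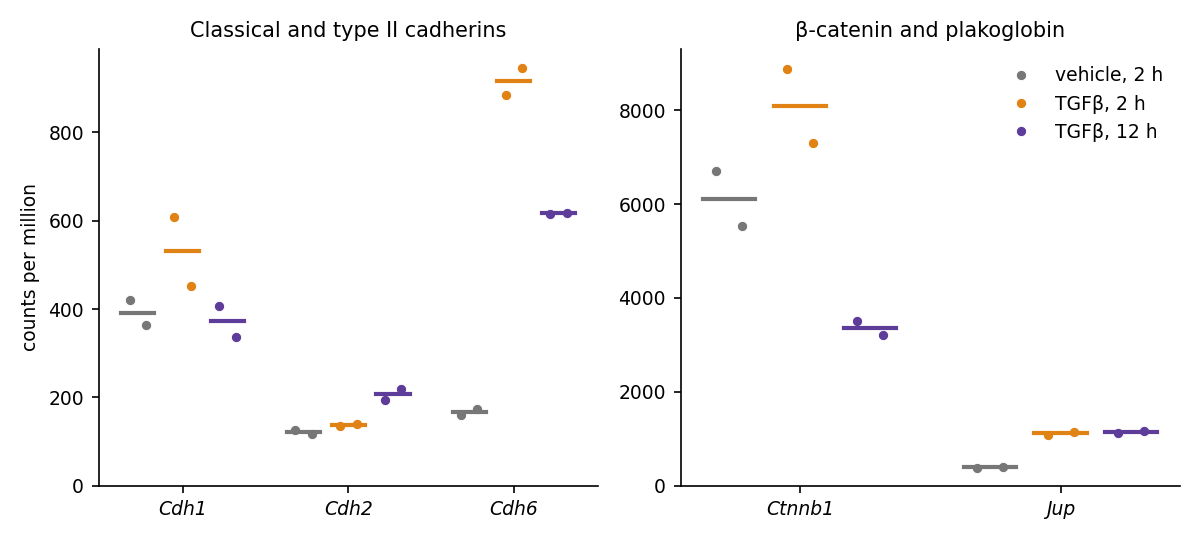
CPM of Cdh1, Cdh2 and Cdh6 (left) and of Ctnnb1 and Jup (right) in the 6 libraries, with points for libraries and bars for group means in vehicle (gray), TGFβ at 2 h (orange) and TGFβ at 12 h (purple), linear axes from 0. Levels can be compared within a gene, not between genes of unequal length. Cdh6 peaks at 2 h (884 and 947), and Jup stays near its 2 h level at 12 h while Ctnnb1 falls.

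Genes of other parts of the junction were called in both directions, as were genes in general. Of all genes tested, 9.91% were higher and 5.25% lower at 2 h, and 21.8% and 21.5% at 12 h. Of 17 counted Fat, Dchs, Celsr, calsyntenin and non-clustered protocadherin genes 10 were tested, with 2 higher at 2 h, then 4 higher and 2 lower at 12 h. Pcdh1 rose by 2.20 at 2 h (adjusted p = 0.000127) and 1.56 at 12 h (adjusted p = 8.45e-05), and Pcdh18 by 2.18 at 12 h (adjusted p = 0.00407). Pcdh18 had 0.530 to 1.41 CPM in the vehicle and 2 h libraries, and 2.40 and 2.93 at 12 h. It passed the filter of 2 CPM through the 12 h libraries alone, the group where it was high. Clstn3 (calsyntenin-3) had 74 and 42 counts with vehicle, 76 and 41 at 2 h, and 3 and 1 at 12 h. Its pooled level at 12 h was 37.6-fold below vehicle (exact binomial 95% interval 14.3 to 140, counting error only, with edgeR adjusted p = 0.00103). All 14 actin linkers and plaque genes were tested, with 4 higher at 2 h, then 6 higher and 4 lower at 12 h. Zyx (zyxin, of focal adhesions and strained junctions) rose by 1.55 at 2 h (adjusted p = 0.00424) and 2.69 at 12 h (adjusted p = 0.000177), and Actn1 (α-actinin-1, an actin crosslinker) by 1.09 (adjusted p = 0.00188) and 2.32 (adjusted p = 4.90e-05). Lima1 (EPLIN, an actin-binding partner of α-catenin) went the other way, falling from 364 and 359 CPM with vehicle to 120 and 125 at 12 h (log2FC -1.56, SE 0.118, adjusted p = 0.000164), with 384 and 323 CPM at 2 h.

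Nectins, the immunoglobulin-type adhesion molecules that sit beside cadherins, and nectin-like proteins gave 1 higher of 6 tested at 2 h and 5 higher of 6 at 12 h, with a median log2FC of 0.99 at 12 h. The shares of all genes called higher were 9.91% at 2 h and 21.8% at 12 h. Nectin1 had 0.766 and 1.47 CPM with vehicle, 1.16 and 1.56 at 2 h, and 4.62 and 5.65 at 12 h (log2FC 2.20, SE 0.366, adjusted p = 0.00348). It passed the filter of 2 CPM through the 12 h libraries alone, the group where it was high. Cadm4 rose by 1.89 (SE 0.137, adjusted p = 0.000145) and Cadm1 by 1.14 (SE 0.203, adjusted p = 0.00474) at 12 h. Cadm4 was also called at 2 h (0.92, adjusted p = 0.00680), which ended without vehicle replicate 2 (adjusted p = 0.0553). Of 16 genes of cadherin turnover and junction phosphorylation, 2 were higher at 2 h, then 4 higher and 2 lower at 12 h. Of all genes, 9.91% were higher at 2 h, and 21.8% were higher and 21.5% lower at 12 h. The tyrosine kinase Src rose by 1.12 at 2 h (adjusted p = 0.00187) and 1.44 at 12 h (adjusted p = 0.000209), and the homophilic receptor phosphatase Ptprm rose by 1.47 at 12 h (adjusted p = 0.000859). Rab11a, of recycling endosomes, fell by 0.56 at 12 h (adjusted p = 0.0148), a call lost without either vehicle library or without TGFβ 12 h replicate 2 (adjusted p = 0.0562 to 0.0946).

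The destruction complex marks β-catenin protein for degradation. Of the 10 genes on its list, all tested, 1 was lower at 2 h, namely Amer1 (-0.73, adjusted p = 0.0264, not called without either vehicle library, TGFβ 2 h replicate 1 or either 12 h library, at adjusted p = 0.0546 to 0.139, or with only the 2 groups fitted, 0.0636), and 2 were higher at 12 h, beside 5.25% of all genes lower at 2 h and 21.8% higher at 12 h. The genes called at 12 h were the ubiquitin ligase subunit Fbxw11 (0.49, adjusted p = 0.0107) and the β-catenin inhibitor Ctnnbip1 (0.57, adjusted p = 0.0338). The Fbxw11 call ended without vehicle replicate 2 or either 12 h library (adjusted p = 0.0601 to 0.0891), and its 2 h value of 0.39 (adjusted p = 0.0564) became a call with DESeq2 (adjusted p = 0.0222). The Ctnnbip1 call ended without any 1 of the vehicle or 12 h libraries (adjusted p = 0.0522 to 0.222) and with total counts as the scale (0.44, adjusted p = 0.0682). Of 8 nuclear partners 5 were tested, and only the transcription factor Tcf7 was called, from 1.30 and 0.956 CPM with vehicle to 4.76 and 5.20 at 2 h and 6.97 and 7.29 at 12 h (log2FC 2.13, adjusted p = 0.00294, and 2.65, adjusted p = 0.000339). Tcf7 passed the filter through the TGFβ libraries alone. Its relative Tcf7l2 was tested, with 13.5 to 18.3 CPM, and differed by 0.09 at 2 h (adjusted p = 0.783) and 0.14 at 12 h (adjusted p = 0.585), and the relatives Lef1 and Tcf7l1 had at most 5 counts in any library. Of 5 partners of p120-catenin, 1 was higher at 12 h, beside 21.8% of all genes, namely the GTPase-activating protein Arhgap35 (0.47, adjusted p = 0.0138). That call was lost without vehicle replicate 1 (log2FC 0.41) and without TGFβ 12 h replicate 1 (0.51) or 2 (0.40). It was also lost with total counts as the scale (0.34, adjusted p = 0.0564).

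Several repressors known to act on the Cdh1 promoter rose, while Cdh1 RNA did not pass the test. Of 9 such genes 7 were tested, 4 were higher at 2 h and 5 at 12 h, and none of the 7 was lower against vehicle. Beside them, 9.91% of all genes were higher and 5.25% lower at 2 h, and 21.8% and 21.5% at 12 h. Klf8, below the filter and singled out after its values had been seen, had 17 and 12 counts with vehicle, 7 and 1 at 2 h, and 2 and 1 at 12 h (adjusted p = 0.0134 at 12 h in the fit without a filter). Snai1 (Snail) had 2 and 3 counts with vehicle, 181 and 206 at 2 h, and 242 and 232 at 12 h. Snai1 passed the filter through the TGFβ libraries alone. Its pooled ratio to vehicle was 63.9 at 2 h (exact binomial 95% interval 27.2 to 198, counting error only) and 73.0 at 12 h (31.1 to 226, likewise), with edgeR adjusted p = 0.000212 and 4.90e-05. Zeb2 had 13.5 and 12.9 CPM with vehicle, 23.1 and 20.4 at 2 h, and 56.6 and 58.5 at 12 h (log2FC 2.12 at 12 h, SE 0.125, adjusted p = 7.08e-05). Zeb1 rose by 1.48 at 12 h (SE 0.111, adjusted p = 0.000161). The smaller 2 h changes of Zeb2 (0.72, adjusted p = 0.0114) and Zeb1 (0.55, adjusted p = 0.0216) were not called without either vehicle or either 12 h library (adjusted p = 0.0504 to 0.0772 and 0.0690 to 0.146), or with only the 2 groups fitted (0.0632 and 0.0790).

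**Figure D5:**
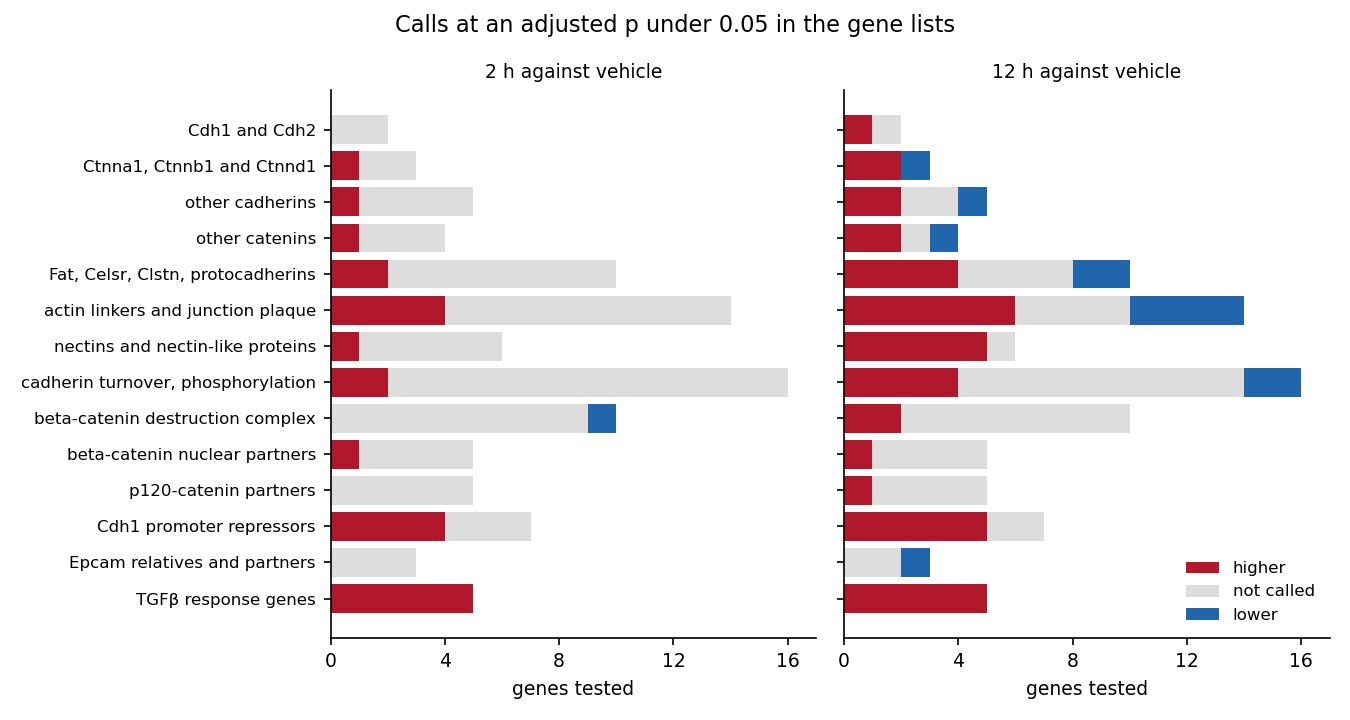
Number of tested genes in each list called higher (red), not called (gray) or called lower (blue) at an adjusted p of 0.05, for TGFβ at 2 h (left) and 12 h (right) against vehicle. The catenins Ctnna1, Ctnnb1 and Ctnnd1 and the actin linkers hold calls in both directions at 12 h. So do the other cadherins, the other catenins, the Fat and protocadherin list and the turnover list. Apart from the Epcam relatives, the remaining lists hold none lower at 12 h.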

How the data were processed

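The authors sequenced stranded total RNA from 2 biological replicates of each of the 3 conditions. Per the study's methods, reads were quality-filtered by the authors, aligned to mm9 with subjunc (Subread), kept unique alignments, removed duplicates with SAMtools 0.1.19 and counted exon reads per gene and strand with featureCounts. The deposited values are raw counts of 21240 genes, not normalized. Groups came from the submitters' labels, and replicates are separate biological samples per the labels.

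Counts were fitted in R 4.3.3 with edgeR 4.0.16 (TMM, quasi-likelihood test, 1 fit of the 3 groups, genes at 2 CPM or more in 2 or more libraries, p-values two-sided and adjusted by Benjamini-Hochberg over the 11080 genes of each contrast). A call is an adjusted p under 0.05. The SE is the absolute log2FC divided by the square root of F, and 95% intervals use the t quantile of the same fit. limma 3.58.1 (voom, the test of the study) and DESeq2 1.42.0 were alternatives, beside other scalings, filters and samples. RPKM used the union of GENCODE exons on NCBIM37, with Python 3.11.15, numpy 2.4.6, pandas 2.3.3 and scipy 1.17.1. Levels were put on a log scale after adding 0.25 CPM. The fits were tested on simulated data. The members and gene lists were chosen with earlier results of these data known. Named genes are the 8 members, the 3 genes of each list with the largest absolute log2FC at 12 h among those called at either time, and the 3 genes closest to each member by Pearson's r. Genes named outside this rule were picked with their values in view. With 2 libraries per group, the p-values set each group difference against a spread shared by the 3 groups and estimated partly from other genes.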

Additional observations from a re-analysis of the deposited data

Results flagged for a closer look

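The effects of TGFβ at 2 h and at 12 h, both against the same vehicle libraries, differed for 3 of the 5 tested genes by edgeR's test of 12 h against 2 h, 2 higher and 1 lower at 12 h, where 15.2% of all genes tested were called higher and 18.9% lower. For Cdh2 the effect was larger at 12 h by 0.58 in log2FC (0.76 against 0.18, adjusted p = 0.00708), with both 12 h libraries above both 2 h libraries. For Ctnnb1 the difference was -1.27 (-0.87 against 0.40, adjusted p = 0.00169), with both 12 h libraries below both 2 h libraries. For Ctnnd1 it was 0.41 (1.13 against 0.73, adjusted p = 0.0359), with both 12 h libraries above both 2 h libraries, and this call was made under 7 of 14 alternatives.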

How the results depend on the processing

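With 2 libraries per group the spread is poorly known, and calls near the threshold depended on single libraries. Leaving out each library in turn, where the lone library of a group is assumed to vary like the other groups, gave 0 to 2 called members at 2 h (1 in the report), 2 to 4 at 12 h (4) and 1 to 3 between 2 h and 12 h (3). For the junction lists it gave 10 to 18 called genes at 2 h (17), 27 to 47 at 12 h (43) and 17 to 35 between 2 h and 12 h (35). The Cdh1 log2FC at 12 h ranged from -0.23 (without TGFβ 12 h replicate 1) to 0.04, turning sign from -0.07 to 0.0362 without vehicle replicate 1 and to 0.0391 without TGFβ 12 h replicate 2. Over all genes, leaving out 1 library gave from 499 higher and 138 lower (without vehicle replicate 1) to 1250 and 950.0 (without TGFβ 2 h replicate 1) at 2 h, against 1098 and 582, and the fewest calls at 12 h were 1333 and 1567 (without TGFβ 12 h replicate 2), against 2414 and 2385.

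Replicate numbers are shared between groups, but the labels tie them to no common batch. Deviations of same-numbered libraries correlated at 0.708 (vehicle and 2 h), 0.263 (vehicle and 12 h) and 0.392 (2 h and 12 h). With the replicate block 3 members were called at 2 h, Cdh1 (adjusted p = 0.0111) and Ctnnb1 (0.0238) beside Ctnnd1, with 28 genes of the junction lists, among them Fbxw11 (0.0108), and 1813 higher and 1409 lower genes in all. Between 2 h and 12 h the block added Cdh1 (adjusted p = 0.0025), and it changed no member's call at 12 h against vehicle.

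Total counts without TMM factors moved the median log2FC of all genes by -0.11 at 2 h and -0.13 at 12 h, to -0.12 and -0.11, and the split of calls to 854 higher against 975 lower (2 h) and 1830.0 against 3047 (12 h), while no member changed direction. Fitting only the 2 groups compared gave 644 higher and 249 lower genes at 2 h. With the longest transcript as the length, the log2 Cdh2 to Cdh1 ratio was -1.81, -2.05 and -0.98 in vehicle, 2 h and 12 h (-2.50, -2.74 and -1.67 in the report), and the share of Cdh1 was 77.7%, 80.4% and 66.1%, or 76.2%, 78.9% and 64.1% with no division by length. Other settings left the called members of each contrast within 1 of the count in the report. The cause of these shifts was not tested. Depth limits what can be said of Cdh3, Cdh11 and Epcam.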

Other observations

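The nearest counted genes with a matching symbol on either side of each member, by start site on NCBIM37, were looked up after the members' values were known. Ulk4, 348 kb from Ctnnb1 and a kinase-like gene, fell by 1.71 in log2FC at 12 h (SE 0.406, adjusted p = 0.0147), from at most 83 counts, while Rpl14 on the other side differed by -0.24 (adjusted p = 0.186). Beside Ctnnd1, Tfpi rose by 0.95 at 12 h (SE 0.291, adjusted p = 0.0377), with 20 to 59 counts, and Med19, 27.6 kb away, differed by 0.15 (adjusted p = 0.368). Beside the near-silent Epcam, Calm2 rose by 0.71 (adjusted p = 0.0230) at 12 h. Hspa9, next to Ctnna1, differed by 0.00 (adjusted p = 0.983), and Zfp90, upstream of Cdh3, by 0.30 (adjusted p = 0.0845). The genes next to Cdh2 (Chst9 and Dsc3) and Cdh8 next to Cdh11 had 0 counts in all 6 libraries. The collagen and proteoglycan transcripts Col1a2, Col3a1 and Dcn, which mark fibroblasts, were low but uneven between replicates, and replicate 1 held more counts than replicate 2 of each in every group. Col1a2 had 11 and 0 counts with vehicle (replicate 1, then 2), 19 and 4 at 2 h, and 28 and 3 at 12 h. Col3a1 had 10 and 1, 6 and 0, and 13 and 0, and Dcn had 10 and 1, 11 and 2, and 1 and 0. These genes were picked after their values had been seen, and others of the fibroblast list went both ways. Pdgfra was also higher in replicate 1 of each group (2.77 and 2.17 CPM with vehicle). Vim was higher in replicate 2 of each group (1821 and 1986 CPM with vehicle). Col1a1 had 11 and 20 counts with vehicle, 94 and 135 at 2 h, and 252 and 211 at 12 h.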
